A study of Homo sapiens with 19 samples.

Results

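The 45 genes described here are 20 genes of DNA synthesis (S phase members) and 25 genes of mitosis (mitotic members), chosen by name and matched by Ensembl identifier, of the 32703 gene identifiers present in all 19 libraries. All 45 were found in every library, none was at 0 in any library, and all 45 passed the filter on low counts in both fits used below. The libraries were droplet single-cell RNA libraries (10x Genomics 3′ version 3 chemistry) of organoids grown from W01, a human pluripotent stem cell line, wild type in every group. Such human liver organoids (HLOs) are small cultures that grow as spheres in suspension and hold epithelial and mesenchymal cells. Untreated organoids in ultra-low attachment plates (ULA) were taken at day 21 (3 libraries) and day 34 (2 libraries). Organoids on an orbital shaker (OS) were taken at day 25 in 7 groups of 2 libraries: untreated, TGFB1 at 10 ng/ml and its own control, PA at 500 µM and its own control, and OA at 500 µM and its own control. TGFB1 is transforming growth factor β1, and PA and OA appear in the labels only as these letters. For TGFB1 and PA, 20 days of culture were followed by 5 days of treatment, per the labels' protocols, which do not describe OA. All groups come from 1 cell line, and the labels do not say whether libraries of a group came from separate differentiations, so p-values measure the spread between these libraries, which may be technical.

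A cell that divides first copies its DNA and then separates the copies. In G1, CDC6 and CDT1 load the MCM2 to MCM7 helicase onto origins, and in S phase CDC45 and the GINS complex switch the helicase on while PCNA, loaded by the RFC complex, holds the polymerases on the template and thymidylate and ribonucleotide enzymes supply the building blocks. E2F transcription factors, released from RB proteins by G1 cyclin kinases, drive most of these genes, whereas the genes of G2 and M phase are repressed in resting cells by the DREAM complex and activated by MYBL2 and FOXM1 through CHR elements and CCAAT boxes. The anaphase-promoting complex then ends mitosis by having cyclins and securin destroyed. In the liver, most hepatocytes rest outside the cycle and re-enter it after injury, and TGFβ is a textbook inhibitor of epithelial growth.

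The start regions of the members are shown as description, because the S phase and mitotic members hold different motifs there. Whether these motifs bear on how far a member moved was not tested. RefSeq windows (GRCh38.p14, 250 bases before to 50 after the start) were at hand for 39 members, 18 of S phase and 21 of mitosis, and not for MCM4, MCM5, UBE2C, BIRC5, TPX2 and AURKA. Each stretch below is the 100 bases just before the RefSeq start of the gene, read 5′ to 3′ on the gene's strand, with capitals marking an E2F core (TTGGCGC or TTGCCGC or TTCGCGC or TTCCCGC), a CHR (TTTGAA or TTCGAA) or a CCAAT box (CCAAT), on either strand. E2F1 lies at chr20:33686386-33686485 (minus strand), CDT1 at chr16:88803689-88803788 (plus), CCNB2 at chr15:59105046-59105145 (plus), KIF11 at chr10:92593030-92593129 (plus) and PLK1 at chr16:23678789-23678888 (plus).
E2F1: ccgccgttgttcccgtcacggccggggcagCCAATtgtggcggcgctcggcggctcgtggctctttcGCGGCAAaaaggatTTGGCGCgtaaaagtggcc
CDT1: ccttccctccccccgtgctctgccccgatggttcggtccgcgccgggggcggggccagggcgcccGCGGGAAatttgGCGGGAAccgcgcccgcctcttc
CCNB2: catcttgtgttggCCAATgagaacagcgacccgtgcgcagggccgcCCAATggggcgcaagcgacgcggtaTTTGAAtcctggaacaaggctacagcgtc
KIF11: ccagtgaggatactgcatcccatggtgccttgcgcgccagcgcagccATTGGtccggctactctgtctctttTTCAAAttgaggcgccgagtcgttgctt
PLK1: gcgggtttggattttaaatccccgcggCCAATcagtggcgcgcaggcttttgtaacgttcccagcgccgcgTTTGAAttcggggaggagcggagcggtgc
The stretches of E2F1 and CDT1, an S phase regulator and a licensing factor, each held 2 E2F cores and no CHR. The stretches of the mitotic genes CCNB2, KIF11 and PLK1 each held 1 CHR and at least 1 CCAAT box and no E2F core. Over whole windows an E2F core was found for 16 of 18 S phase members (88.9%), 5 of 21 mitotic members (23.8%) and 15.3% of all 27305 genes with a window. A CHR was found for 3 S phase members (16.7%), 15 mitotic members (71.4%) and 19.5% of all genes. A CCAAT box was found for 12 S phase members (66.7%), 18 mitotic members (85.7%) and 39.7% of all genes. Genes with several listed starts had more chances of a match, and counted per window the shares were 60%, 25% and 12.97% for the E2F core and 10%, 66.7% and 16.4% for the CHR. A match describes letters in these windows only.

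A barcode was kept as a cell from 500 detected genes upward if no more than 20% of its counts were mitochondrial, which left 3089 to 12427 cells per library, and their unique molecular identifiers (UMIs, 1 per captured RNA molecule) were summed. The sums ranged from 6880807 in PA control replicate 1 to 91184130 in ULA day 34 replicate 2. CPM is a gene's UMIs scaled to its library's total over the 32703 identifiers present in all libraries. That total was smaller than this sum, most clearly in the ULA libraries. CPM values therefore cannot be recomputed from these sums. The deposited tables list 58721 genes for ULA, 33538 for the TGFB1 and PA sets and 36601 for the OA set with the untreated libraries, so levels were compared across these sets as description only. No 2 libraries held the same values, and pairs of libraries shared at most 0.553% of the barcodes of the smaller one. The hepatocyte list (ALB, APOA1, TTR and 7 others) summed to 23158 and 17312 CPM in the PA control, 11552 and 11264 in untreated OS, 2761, 2419 and 2603 in ULA day 21 and 103 and 867 in ULA day 34, so the labelled tissue's own markers were low in ULA day 34 replicate 1.

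Across the 9 groups, most members were highest in day 21 ULA organoids and lowest with TGFB1 or OA. The 20 S phase members together summed to 1406, 1356 and 1385 CPM in day 21 ULA and 754 and 1256 in day 34 ULA. In OS organoids they summed to 434 and 457 untreated, 709.7 and 638 in the TGFB1 control, 259.9 and 303 in the PA control and 545 and 597 in the OA control. With treatment the sums were 232 and 218 for TGFB1, 244 and 299.8 for PA and 156 and 201 for OA. The TGFB1 and OA libraries thus lay below their controls, whereas the PA libraries overlapped theirs for this sum. The 25 mitotic members summed to 2751, 2846 and 3039 CPM in day 21 ULA, 1225 and 1681 in day 34 ULA and 868 and 849 in untreated OS. Their sums were 109.7 and 106 with TGFB1 against 939 and 747 in its control, 259.5 and 266 with PA against 322 and 336, and 291 and 312 with OA against 858 and 921. All 3 treatments lay below their controls for the mitotic sum, PA by the smallest amount. For PA the lack of overlap rested on TOP2A: with that gene left out of the sums, the PA and control libraries overlapped. Gene by gene, both PA libraries lay below both controls for 13 of 25 mitotic members and above them for 0. Among all genes with a count these shares were 12.95% and 8.68%. The 3 OS control groups were not alike: both PA control libraries were below every untreated, TGFB1 control and OA control library for both sums. In these sums fewer dividing cells and less RNA per dividing cell cannot be told apart.

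**Figure D1:**
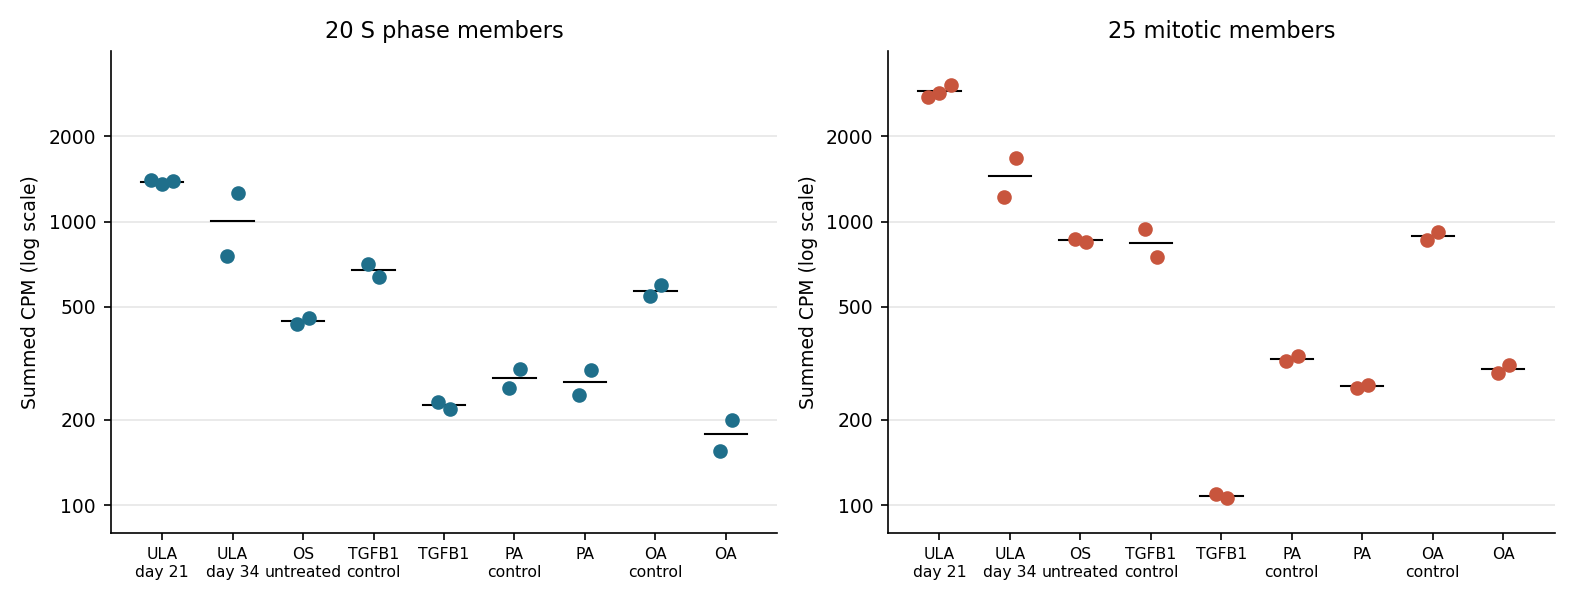
Summed CPM (log scale) of the 20 S phase members (left) and the 25 mitotic members (right) in each of the 19 libraries. Points are libraries and bars are group means; the 2 TGFB1 libraries are the lowest points of the mitotic panel and the 2 OA libraries the lowest of the S phase panel.

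The 2 sets did not keep a fixed proportion. The mitotic sum divided by the S phase sum, used here only to set libraries side by side because 3′ counts are not comparable between genes, was 1.96, 2.1 and 2.19 in day 21 ULA and 2.00 and 1.86 in untreated OS. It was 1.32 and 1.17 in the TGFB1 control and 0.473 and 0.485 with TGFB1, where the mitotic sum was the smaller one. The OA control libraries stood at 1.57 and 1.54 and the OA libraries at 1.87 and 1.56, so the ratio did not fall there. It was lower without overlap in day 34 ULA, at 1.62 and 1.34, than in day 21 ULA, and with PA, at 1.06 and 0.886, than in its control, at 1.24 and 1.11. Gene by gene, day 21 ULA was the highest group for 17 of 20 S phase and 24 of 25 mitotic members, and TGFB1 was the lowest for 12 and 23. OA was the lowest group for 7 S phase members and 1 mitotic member, the PA control for 1 S phase member and PA for 1 mitotic member. Highest and lowest groups over all genes are not given here. The exceptions at the top were MCM2 and UHRF1 (a methylation maintenance factor), highest in the TGFB1 control, NUSAP1 (a spindle microtubule protein), also highest there, and MCM4, highest in day 34 ULA. For MCM2 and UHRF1 this rested on TGFB1 control replicate 1, and for MCM4 on day 34 ULA replicate 2.

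**Figure D2:**
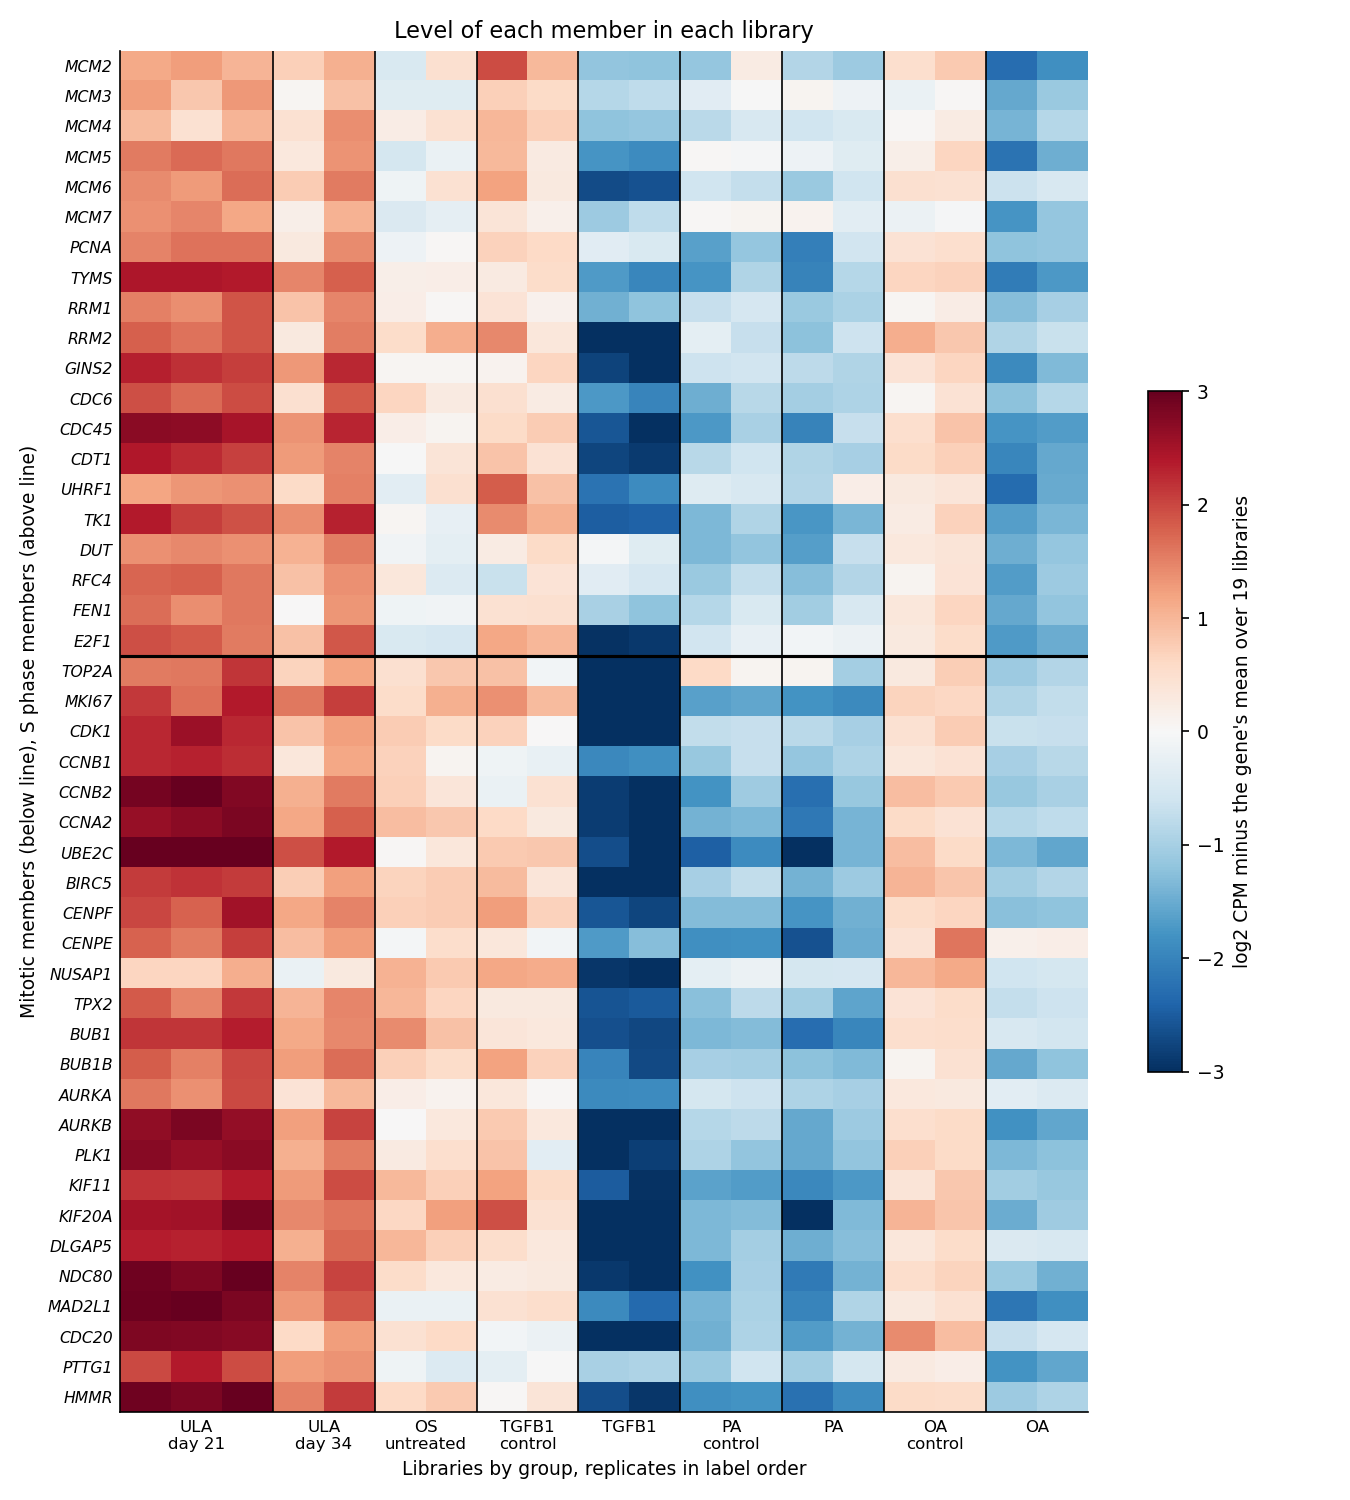
Each row is a member and each column a library; colour gives log2 CPM minus the gene's mean over the 19 libraries, from -3 (blue) to 3 (red), and stronger values are drawn at those ends. The day 21 ULA columns are red for nearly all members, and the TGFB1 columns are the darkest blue for most mitotic members but pale for PCNA, DUT and RFC4.

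TGFB1 against its control gave the largest median falls of the 5 whole-library comparisons. edgeR's quasi-likelihood test on the summed counts, fitted to all 14 OS libraries and adjusted by Benjamini-Hochberg over the 19366 genes tested, called 17 of 20 S phase and 24 of 25 mitotic members lower at an adjusted p under 0.05, and none higher. Of all genes tested, 22.2% were called in either direction and 11.3% lower. The median log2 fold change was -2.16 for the S phase members and -3.06 for the mitotic members, beside -0.05 over all genes. In 19 of 20 and 25 of 25 members both TGFB1 libraries were below both controls, which held for 35.7% of all genes with a count.

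Among the genes that license and fire origins, MCM2, a helicase subunit, was at 28.97 and 14.7 CPM in the control and 3.32 and 3.24 CPM with TGFB1. All 6 helicase subunits fell, from MCM7 (1.00 ± 0.22) to MCM6 (3.24 ± 0.32 on the log2 scale), and MCM2 itself fell by 2.50 ± 0.41 on the log2 scale (edgeR adjusted p = 0.000917). CDC45, the helicase cofactor, was at 5.06 and 5.76 CPM and then 0.568 and 0.408, and it fell by 3.28 ± 0.40 on the log2 scale (edgeR adjusted p = 8.91e-05). CDT1 (-3.25), GINS2 (-3.20) and CDC6 (-2.01), which load or switch on the helicase, were also called lower. The nucleotide enzymes split. RRM2, the small subunit of ribonucleotide reductase that is made in S phase, was at 53.6 and 24.9 CPM in the control and 1.34 and 1.1 with TGFB1, and fell by 4.76 ± 0.40 on the log2 scale (edgeR adjusted p = 7.17e-06). TK1, thymidine kinase, was at 25.7 and 20.3 CPM and then 1.73 and 1.79, and fell by 3.50 ± 0.24 on the log2 scale (edgeR adjusted p = 1.62e-06). TYMS, thymidylate synthase, was at 45.6 and 55.8 CPM and then 11.7 and 9.74, and fell by 2.06 ± 0.34 on the log2 scale (edgeR adjusted p = 0.000888). RRM1, the large reductase subunit, fell less (1.40), and DUT, which removes dUTP, was not called at -0.44 ± 0.27 (edgeR adjusted p = 0.266).

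At the fork itself, PCNA, the sliding clamp, was at 63.7 and 59.2 CPM in the control and 31.03 and 28.7 CPM with TGFB1. The groups did not overlap, yet PCNA was not called, at -0.84 ± 0.33 (edgeR adjusted p = 0.085). It passed with the TGFB1 and control libraries fitted alone (edgeR adjusted p = 0.0266) and with total-count scaling (edgeR adjusted p = 0.0349), and over all alternatives its adjusted p ran from 0.00595 to 0.278. RFC4, a subunit of the clamp loader, was at 9.93 and 20.99 CPM and then 12.3 and 11.1, so the groups overlapped, at -0.25 ± 0.35 (edgeR adjusted p = 0.633). FEN1, which trims Okazaki fragments, fell by 1.37 ± 0.23 on the log2 scale (edgeR adjusted p = 0.00104). E2F1, the transcription factor of the S phase programme, was at 11.1 and 9.81 CPM in the control and 0.636 and 0.663 CPM with TGFB1, and fell by 3.80 ± 0.24 on the log2 scale (edgeR adjusted p = 9.79e-07).

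Among the mitotic members, TOP2A, the topoisomerase that untangles sister DNA, was at 124 and 63.3 CPM in the control and 3.98 and 4.41 CPM with TGFB1, and fell by 4.25 ± 0.40 on the log2 scale (edgeR adjusted p = 1.39e-05). MKI67, the proliferation antigen that coats mitotic chromosomes, was at 69.02 and 51.3 CPM and then 3.11 and 2.5, and fell by 4.21 ± 0.25 on the log2 scale (edgeR adjusted p = 9.79e-07). CDK1, the mitotic kinase, was at 41.8 and 26.2 CPM and then 1.66 and 1.73, and fell by 4.10 ± 0.21 on the log2 scale (edgeR adjusted p = 3.96e-07). By these fitted changes the 3 genes were about 17.1 to 19.05 times lower with TGFB1, and both of its libraries lay below both controls. KIF20A, a kinesin of the central spindle, was at 12.8 and 4.57 CPM and then 0.227 and 0.306 (10 and 12 UMIs), and fell by 4.75 ± 0.59 on the log2 scale (edgeR adjusted p = 0.000101). The partners of CDK1 differed among themselves: cyclin A2 (CCNA2) fell by 3.53, cyclin B2 (CCNB2) by 2.98 and cyclin B1 (CCNB1) by 1.51 on the log2 scale. CCNB1 was at 38.3 and 36.3 CPM in the control and 11.04 and 11.8 CPM with TGFB1 (edgeR adjusted p = 0.000155).

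The kinases PLK1 (-3.04), AURKB (-3.45) and AURKA (-1.89), which build the spindle and correct its attachments, were called lower. So were the spindle checkpoint genes BUB1 (-2.81), BUB1B (-3.06) and MAD2L1 (-2.41), and 2 partners of the anaphase-promoting complex, CDC20 (-2.97) and UBE2C (-3.52). The kinetochore genes NDC80 (-3.05), CENPF (-3.44) and CENPE (-1.41) and the spindle genes KIF11 (-3.40), TPX2 (-2.65), NUSAP1 (-3.95), DLGAP5 (-3.86) and HMMR (-2.82) fell, as did BIRC5 (-3.83), survivin. The exception was PTTG1, securin, which holds separase back until anaphase. PTTG1 was at 47.1 and 57.5 CPM in the control and 29.6 and 30.8 CPM with TGFB1, without overlap, at -0.61 ± 0.22 (edgeR adjusted p = 0.0681). PTTG1 has near-identical intronless copies (PTTG2, PTTG3P), so how reads were assigned between them may affect its count.

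Among other genes of the same pathways, from lists chosen by name, most replication and mitotic genes were called lower and fewer of the G1 genes were. Of 34 other replication genes 25 were called lower and none higher (median -1.53), led by MCM10 (-3.78), DTL (-3.62) and EXO1 (-3.62). Of 40 other mitotic genes 37 were lower and none higher (median -3.03), led by KIF4A (-4.13), PRC1 (-4.00) and SPC25 (-3.97). Of 29 genes of the G1 cyclins, RB and E2F families and their activators, 10 were lower and 1 higher (median -0.51), beside 11.3% and 10.9% of all genes. MYBL2 (-4.75), which activates mitotic genes, and the E2F family genes E2F8 (-4.63) and E2F2 (-4.02) changed most, and CCND3, a G1 cyclin, was the 1 that rose (0.81 ± 0.21, edgeR adjusted p = 0.0157). Mesenchymal markers moved with the treatment: their 11 genes summed to 752 and 736 CPM in the control and 1841 and 2269.7 with TGFB1, and 7 of 11 were called higher. The 10 epithelial markers summed to 4933 and 7640.1 CPM and then 11586 and 9303, with 4 called higher. The 10 hepatocyte markers summed to 2737 and 3985 CPM and then 5428 and 4597, yet only SERPINA1 was called higher (1.29) and 4 were called lower, ALB (-4.53), AFP (-2.30), FGB (-1.73) and TTR (-1.18). The 5 immune markers summed to 228 and 199.5 CPM and then 44.4 and 32.8, most of it LYZ, while PTPRC, which defines blood cells, was at no more than 0.0383 CPM in these 4 libraries. The 5 neural markers summed to 23.03 and 34.1 CPM and then 96.2 and 74.4. Values within cells of 1 marker class, given after the comparisons, bear on the mesenchymal and epithelial lists directly, and the part of the other lists in the members' falls was not tested.

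**Figure D3:**
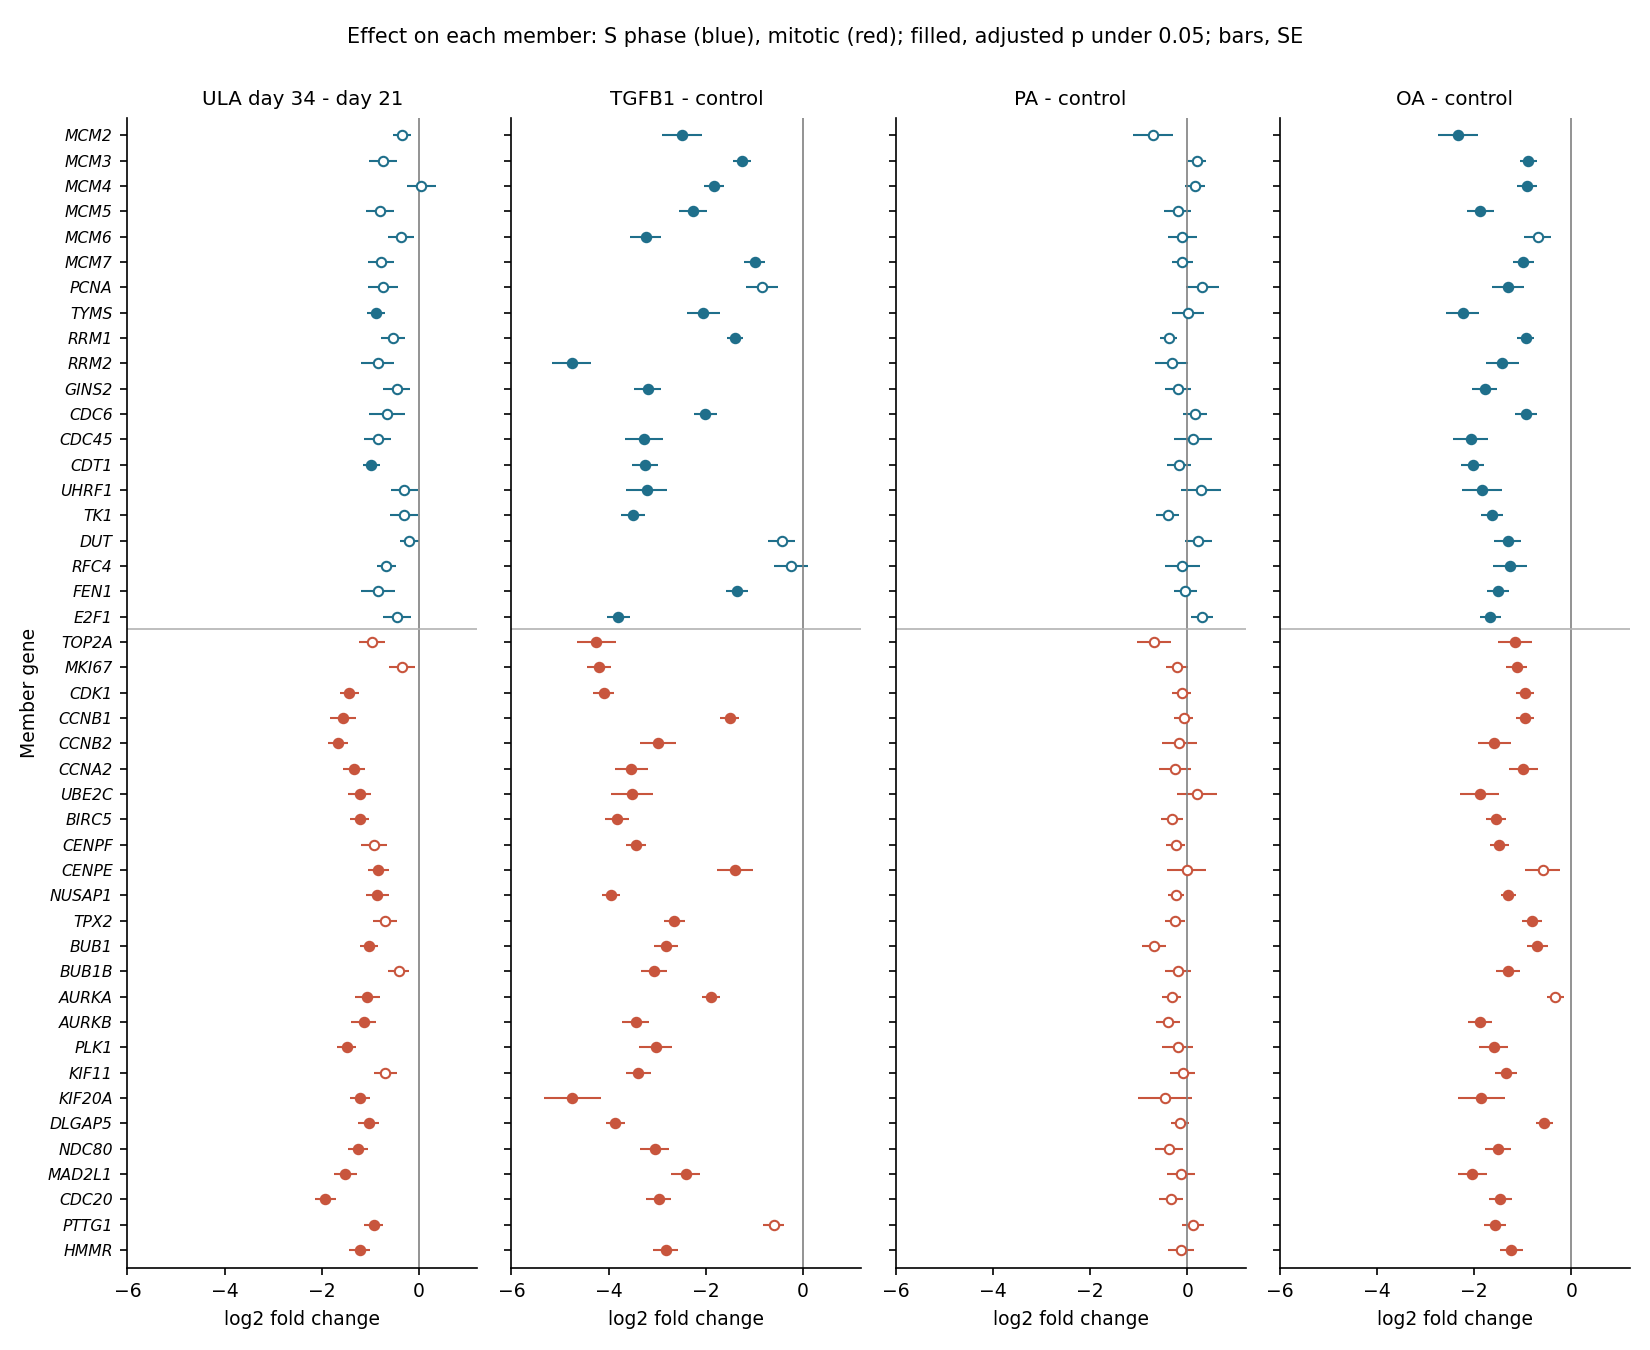
log2 fold change of each member (points) with its standard error (bars) in 4 comparisons; blue is S phase, red is mitotic, and filled points have an edgeR adjusted p under 0.05. With TGFB1 the points spread from -4.76 (RRM2) to -0.25 (RFC4), with PA they lie around 0 and none is filled, and with OA they lie between -2.34 (MCM2) and -0.33 (AURKA).

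OA against its control also lowered nearly all members, with smaller medians than TGFB1 and without the larger median fall of the mitotic set. Called lower were 19 of 20 S phase and 23 of 25 mitotic members, and none was higher. The comparison moved much of the transcriptome, with 43.3% of genes called in either direction and 21.6% lower. Medians were -1.46 for S phase and -1.30 for mitotic members, beside -0.08 over all genes. For all 45 members both OA libraries were below both controls, as they were for 46.5% of all genes with a count. Total-count scaling moved the median of all genes to -0.42 for OA and -0.24 for TGFB1, which is the direction in which the members moved.

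MCM2 was at 10.6 and 12.8 CPM in the OA control and 1.54 and 2.09 CPM with OA, and fell by 2.34 ± 0.41 on the log2 scale (edgeR adjusted p = 0.000595). TYMS was at 59.5 and 61.4 CPM and then 8.9 and 11.5, and fell by 2.23 ± 0.34 on the log2 scale (edgeR adjusted p = 0.000191). CDC45 was at 4.82 and 6.1 CPM and then 0.983 and 1.06, and fell by 2.07 ± 0.36 on the log2 scale (edgeR adjusted p = 0.000549). CDT1, the licensing factor, stood at 11.5 and 12.9 CPM and then 2.02 and 2.71, and fell by 2.03 ± 0.24 on the log2 scale (edgeR adjusted p = 3.12e-05). These 4 were the largest falls among the S phase members. PCNA, which TGFB1 did not change past the threshold, was at 52.7 and 55.9 CPM in the control and 17.1 and 17.6 CPM with OA, and fell by 1.30 ± 0.33 on the log2 scale (edgeR adjusted p = 0.00688). RRM2, the largest fall under TGFB1, was at 42.4 and 34.96 CPM and then 10.7 and 12.4, and fell by 1.42 ± 0.33 on the log2 scale (edgeR adjusted p = 0.00402). The other helicase subunits fell by 0.88 (MCM3) to 1.87 (MCM5) except MCM6, at -0.70 ± 0.28 (edgeR adjusted p = 0.0634). DUT (-1.31), RFC4 (-1.26), FEN1 (-1.51), E2F1 (-1.67), UHRF1 (-1.84), GINS2 (-1.79), TK1 (-1.63), CDC6 (-0.94) and RRM1 (-0.94) were all called lower.

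On the mitotic side MAD2L1, a checkpoint protein, was at 27.4 and 30.6 CPM in the control and 4.97 and 6.17 CPM with OA, and fell by 2.04 ± 0.29 on the log2 scale (edgeR adjusted p = 0.00014). UBE2C, the ubiquitin-conjugating enzyme of the anaphase-promoting complex, was at 61.1 and 47.97 CPM and then 12.6 and 10.9, and fell by 1.88 ± 0.40 on the log2 scale (edgeR adjusted p = 0.00214). AURKB, the kinase of the chromosome passenger complex, was at 11.5 and 12.1 CPM and then 2.3 and 2.77, and fell by 1.88 ± 0.24 on the log2 scale (edgeR adjusted p = 5.98e-05). KIF20A was at 6.75 and 5.89 CPM and then 1.19 and 1.59, and fell by 1.85 ± 0.48 on the log2 scale (edgeR adjusted p = 0.00727). Without OA replicate 1 the edgeR adjusted p of KIF20A was 0.0659, in a range of 3.19e-07 to 0.0659 over its alternatives. TOP2A, MKI67 and CDK1, among the largest falls under TGFB1, fell less here. TOP2A was at 82.95 and 112 CPM in the control and 31.6 and 36.7 CPM with OA, and fell by 1.16 ± 0.35 on the log2 scale (edgeR adjusted p = 0.0166). That call was lost without OA control replicate 2 (edgeR adjusted p = 0.0902), OA replicate 1 (0.102) or OA replicate 2 (0.0569), in a range of 2.7e-05 to 0.102 over its alternatives. MKI67 was at 41.8 and 41.03 CPM and then 14.2 and 15.8, and fell by 1.13 ± 0.22 on the log2 scale (edgeR adjusted p = 0.0011). CDK1 was at 35.2 and 44.04 CPM and then 16.2 and 16.1, and fell by 0.95 ± 0.18 on the log2 scale (edgeR adjusted p = 0.00112). CCNB1 was at 53.2 and 57.1 CPM and then 21.1 and 23.8, and fell by 0.96 ± 0.19 on the log2 scale (edgeR adjusted p = 0.00155).

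Not called were AURKA, the kinase of the spindle poles, at -0.33 ± 0.18 (edgeR adjusted p = 0.154), and CENPE, the kinetochore motor, at -0.59 ± 0.36 (edgeR adjusted p = 0.204), although the groups of neither gene overlapped. CENPE was at 23.3 and 51.9 CPM in the control, where the 2 libraries stood far apart, and 18.97 and 19.8 CPM with OA. The other mitotic members fell by 0.55 (DLGAP5) to 1.60 (PLK1). Of the other genes, 24 of 34 replication genes were lower and 1 higher, led by GINS4 (-1.96), GINS3 (-1.80) and CLSPN (-1.77). The 1 higher gene was GMNN, geminin, the inhibitor of relicensing (0.69 ± 0.18, edgeR adjusted p = 0.00803). Of the other mitotic genes 34 of 40 were lower, led by PIMREG (-2.88), CENPA (-1.86) and NUF2 (-1.83), and ECT2, an activator of cytokinesis, was higher (1.11 ± 0.16, edgeR adjusted p = 0.00015). Of the 29 G1, RB and E2F genes 12 were lower, led by CDK6 (-2.21), MYCN (-1.83) and FOXM1 (-1.75), and 3 were higher: RB1 (1.17), LIN54 (1.08) and E2F3 (0.50). Of all genes 21.6% were called lower and 21.7% higher in this comparison, so the G1 list had fewer higher calls than that share. The makeup of the libraries moved with OA: the 11 mesenchymal markers summed to 2980.0 and 4818 CPM in the control and 178 and 152 with OA, and all 11 were called lower. The hepatocyte markers summed to 12530 and 9010.0 CPM in the control and 23015 and 22698 with OA, with 6 of 10 called higher, and the epithelial markers to 7290 and 6896 and then 10501 and 9850.4, with 5 of 10 higher. The neural markers summed to 187 and 261 CPM and then 95.2 and 80.2, with 2 of 5 called lower. Values within epithelial-marker cells are given with the marker classes, and the part of the hepatocyte and neural lists in the members' falls was not tested.

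PA against its control moved no member past the threshold. edgeR called 0 of 20 S phase and 0 of 25 mitotic members, while 0.0465% of all genes tested were called. At an unadjusted p under 0.05 the test gave 1 S phase and 1 mitotic member, beside 2.79% of all genes, and DESeq2 also called 0 of the 45. Medians were -0.07 and -0.21. Both PA libraries were below both controls for 5 S phase and 13 mitotic members, compared with 12.95% of all genes with a count. MCM2 was at 3.34 and 8.85 CPM in the PA control and 4.03 and 3.54 CPM with PA, so the control libraries spanned the PA libraries, at -0.71 ± 0.41 (edgeR adjusted p = 1). TOP2A was at 102 and 71.2 CPM and then 70.97 and 33.1, so the lowest control and the highest PA library were nearly equal, at -0.69 ± 0.35 (edgeR adjusted p = 1). PCNA was at 12.8 and 17.5 CPM and then 9.5 and 26.5, with the 2 PA libraries on both sides of the controls, at 0.31 ± 0.34 (edgeR adjusted p = 1). The remaining fixed examples were TYMS at 0.01 ± 0.33, RRM2 at -0.32 ± 0.34, MKI67 at -0.21 ± 0.23, CDK1 at -0.12 ± 0.19 and CCNB1 at -0.08 ± 0.20 on the log2 scale. The 95% interval of MKI67's change ran from -0.66 to 0.25 and that of CDK1 from -0.49 to 0.25, so changes within these bounds could not be told from none. No gene of the other replication, other mitotic or G1, RB and E2F lists was called. PA control replicate 1 was the shallowest library of the series, and members were counted there from as few as 7 UMIs (CDC45).

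The OA control was compared with untreated OS organoids, and 1 member was called: E2F1, at 3.63 and 3.49 CPM untreated and 6.03 and 7.21 CPM in the OA control, rose by 1.04 ± 0.21 on the log2 scale (edgeR adjusted p = 0.049). Of all genes 0.573% were called in either direction and 0.0826% higher. E2F1's call was lost without any 1 of the 4 libraries compared, where the change was 0.99 to 1.09. With all 4 kept it was also lost under RLE scaling (edgeR adjusted p = 0.0513) and total-count scaling (0.0862). The same held for the stricter cell filter (0.058) and for these 4 libraries fitted alone (0.31). It passed in other alternatives, among them no count filter (edgeR adjusted p = 0.0443) and DESeq2 (DESeq2 adjusted p = 0.00107). At an unadjusted edgeR p under 0.05 there were 8 S phase and 6 mitotic members, beside 14.6% of all genes. DESeq2 called 5 of the 45, and the share of all genes it called is not given here. Both OA control libraries were above both untreated libraries for 14 of 20 S phase members and for 9 of 25 mitotic members, and below them for 7 mitotic members, beside 14.1% above and 23.3% below among all genes with a count. Medians were 0.60 for S phase and 0.12 for mitotic members. MCM2 (0.68 ± 0.39), PCNA (0.67 ± 0.33) and TYMS (0.64 ± 0.32) had positive values that did not pass, and RRM2 (0.26 ± 0.32), TOP2A (0.01 ± 0.34), MKI67 (-0.05 ± 0.21), CDK1 (0.09 ± 0.18) and CCNB1 (0.12 ± 0.19) were closer to 0. No gene of the other 3 cell cycle lists was called.

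In ULA organoids the mitotic members fell between day 21 and day 34 while most S phase members did not pass the test. edgeR, fitted to the 5 ULA libraries, called 19 of 25 mitotic and 2 of 20 S phase members lower and none higher, among 15.6% of 22261 genes called in either direction, 7.19% lower and 8.43% higher. Medians were -1.14 and -0.67 on the log2 scale, beside 0.01 over all genes, or 0.14 with total-count scaling. All day 34 libraries were below all day 21 libraries for 23 mitotic and 9 S phase members, and for 16.6% of all genes with a count. CDC20, the activator of the anaphase-promoting complex, was at 99.9, 98.3 and 94.8 CPM on day 21 and 21.8 and 33.9 on day 34, and fell by 1.92 ± 0.23 on the log2 scale (edgeR adjusted p = 0.00334). CCNB2 was at 123, 136 and 114 CPM and then 35.3 and 49.5, and fell by 1.67 ± 0.21 on the log2 scale (edgeR adjusted p = 0.004). CCNB1 was at 201, 209.6 and 197 CPM and then 52.97 and 94.7, and fell by 1.57 ± 0.27 on the log2 scale (edgeR adjusted p = 0.0107). MAD2L1 was at 171, 205 and 157 CPM and then 54.5 and 80.2, and fell by 1.52 ± 0.23 on the log2 scale (edgeR adjusted p = 0.00821). CDK1 was at 123, 154 and 123 CPM and then 46.7 and 60.7, and fell by 1.43 ± 0.21 on the log2 scale (edgeR adjusted p = 0.00661). For these 5 genes of mitotic entry and exit the 2 days did not overlap.

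Not every mitotic member followed. MKI67 was at 116, 83.9 and 138 CPM on day 21 and 79.1 and 112 CPM on day 34, with overlap, at -0.35 ± 0.26 (edgeR adjusted p = 0.388). TOP2A was at 199, 200.1 and 299 CPM and then 106 and 152, at -0.97 ± 0.27 (edgeR adjusted p = 0.0526). CENPF (-0.92), TPX2 (-0.70), KIF11 (-0.69) and BUB1B (-0.42) did not pass either. The S phase members called were CDT1, at 41.02, 37.1 and 32.6 CPM and then 18.8 and 21.7, which fell by 0.98 ± 0.17 on the log2 scale (edgeR adjusted p = 0.0116), and TYMS, at 203, 202 and 197 CPM and then 104 and 132, which fell by 0.88 ± 0.18 on the log2 scale (edgeR adjusted p = 0.0187). MCM2 stood at -0.35 ± 0.18 (edgeR adjusted p = 0.228), PCNA at -0.74 ± 0.32 (edgeR adjusted p = 0.151) and RRM2 at -0.85 ± 0.34 (edgeR adjusted p = 0.133). The 2 day 34 libraries differed: replicate 2 was higher than replicate 1 for all 45 members, as for RRM2 with 24.4 and 57.3 CPM. The share of all genes that were higher in replicate 2 is not given here. Without day 34 replicate 2, the library with the smaller falls, 41 of 45 members were called, beside 30.7% of all genes tested in that fit. Without day 21 replicate 1, 2 or 3 the count was 6, 13 or 6, beside 3.54%, 6.49% or 3.17% of all genes. Replicate 1 of day 34 also held more mesenchymal markers, 4777 CPM against 2025 in replicate 2 and 2015, 2594 and 2012 on day 21. Immune markers summed to 168, 90.2 and 154 CPM on day 21 and 2.48 and 36.5 on day 34, and neural markers to 4.52, 6.29 and 4.48 and then 60.3 and 8.93. Pluripotent or germ cell markers (POU5F1, NANOG, DPPA4 and SOX2) summed to 35.5, 56.5 and 31.4 CPM and then 7.82 and 10.6. The hepatocyte sums given above were also lower on day 34. The part of these lists in the members' falls was not tested. Day 34 ULA organoids were trypsinised 10 minutes longer than those of day 21, per the labels, and day and digestion cannot be told apart.

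In the other lists of ULA organoids the mitotic genes had the most calls. Of the other mitotic genes 19 of 40 were lower, led by TTK (-1.48), CDC25C (-1.38) and NEK2 (-1.37). Of the other replication genes 6 of 34 were lower, led by PRIM2 (-1.04), PRIM1 (-1.02) and DSCC1 (-1.0). Among the 29 G1, RB and E2F genes 2 were lower, MYCN (-2.11) and E2F5 (-1.14), and 3 were higher, CCND3 (1.00), RBL2 (0.64) and RB1 (0.63). These 5 calls in 29 genes are close to the 15.6% called over all genes.

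Because TGFB1, PA and OA each had control libraries of their own, the difference between their effects could be tested in the same fit. The TGFB1 effect was lower than the OA effect for 8 of 20 S phase and 21 of 25 mitotic members and higher for 1, with 31.8% of all genes called. CDK1 showed it with -3.15 ± 0.27 (edgeR adjusted p = 5.22e-06), DLGAP5, a spindle assembly protein, with -3.31 ± 0.25 (edgeR adjusted p = 2.68e-06), MKI67 with -3.08 ± 0.32 (edgeR adjusted p = 1.54e-05) and TOP2A with -3.09 ± 0.51 (edgeR adjusted p = 0.0005). Of the S phase members RRM2 (-3.35), MCM6 (-2.54), E2F1 (-2.14) and TK1 (-1.86) differed most. MCM2 (-0.16 ± 0.56), TYMS (0.18 ± 0.46), PCNA (0.46 ± 0.46) and CCNB1 (-0.55 ± 0.27) were not called. The 1 member called in the other direction, with the smaller fall under TGFB1, was PTTG1, at 0.96 ± 0.32 (edgeR adjusted p = 0.0331). With OA, PTTG1 was at 16.9 and 19.8 CPM against 70.3 and 67.2 in its control. The OA libraries carry another software version in their headers than the TGFB1 and PA libraries, and a difference between sets and one between agents cannot be told apart.

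Against PA, the TGFB1 effect was lower for 15 S phase and 23 mitotic members, with 8.8% of all genes called and 4.71% lower. RRM2 (-4.44), E2F1 (-4.10), UHRF1 (-3.51), CDC45 (-3.39), TYMS (-2.07), KIF20A (-4.30), MKI67 (-4.00), CDK1 (-3.98), NUSAP1 (-3.72), TOP2A (-3.56) and CCNB1 (-1.43) were called. MCM2 (-1.79 ± 0.57, edgeR adjusted p = 0.0739) and PCNA (-1.15 ± 0.47, edgeR adjusted p = 0.168) were not. The OA effect was lower than the PA effect for 14 S phase and 14 mitotic members, with 20.5% of all genes called. The largest of these differences were TYMS (-2.25), CDC45 (-2.19), UHRF1 (-2.13), E2F1 (-1.97), UBE2C (-2.08), MAD2L1 (-1.91), PTTG1 (-1.69) and AURKB (-1.48). PCNA (-1.61), CDK1 (-0.83) and CCNB1 (-0.88) were called as well, whereas MCM2 (-1.63), RRM2 (-1.09), TOP2A (-0.47) and MKI67 (-0.92) were not. The count of 28 fell to 10 without OA replicate 1 (11% of all genes called), to 16 without PA control replicate 1 (13.7%) or PA replicate 2 (16.8%) and to 18 without OA control replicate 2 (10.5%). PA and OA were given at the same dose of 500 µM.

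The members were next read within 2 classes of cells, set by the share of a cell's marker UMIs that came from the mesenchymal list (collagens, DCN, LUM, PDGFRA and others) against the epithelial list (EPCAM, CDH1, keratins, claudins and others). Cells with at least 5 marker UMIs counted as epithelial-marker cells at a share of at most 20% and as mesenchymal-marker cells at 50% or more, which is a range of a score and not a cell type. Within a class, summed CPM is scaled to all UMIs of the class in a library. CPM of a single gene in a class is scaled to the class's UMIs over the shared identifiers. In most groups the mesenchymal-marker cells carried more mitotic RNA. In the PA control the mitotic members summed to 1823 and 1288 CPM in mesenchymal-marker cells and 194 and 224 CPM in epithelial-marker cells. In day 21 ULA the sums were 3388, 3168 and 3680.0 CPM in the former against 2084, 2087 and 2221 in the latter, and in untreated OS 1228 and 1460.1 against 579.7 and 684. The TGFB1 control was the reverse, with 673 and 368 CPM in mesenchymal-marker cells and 950.2 and 769.9 CPM in epithelial-marker cells.

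**Figure D4:**
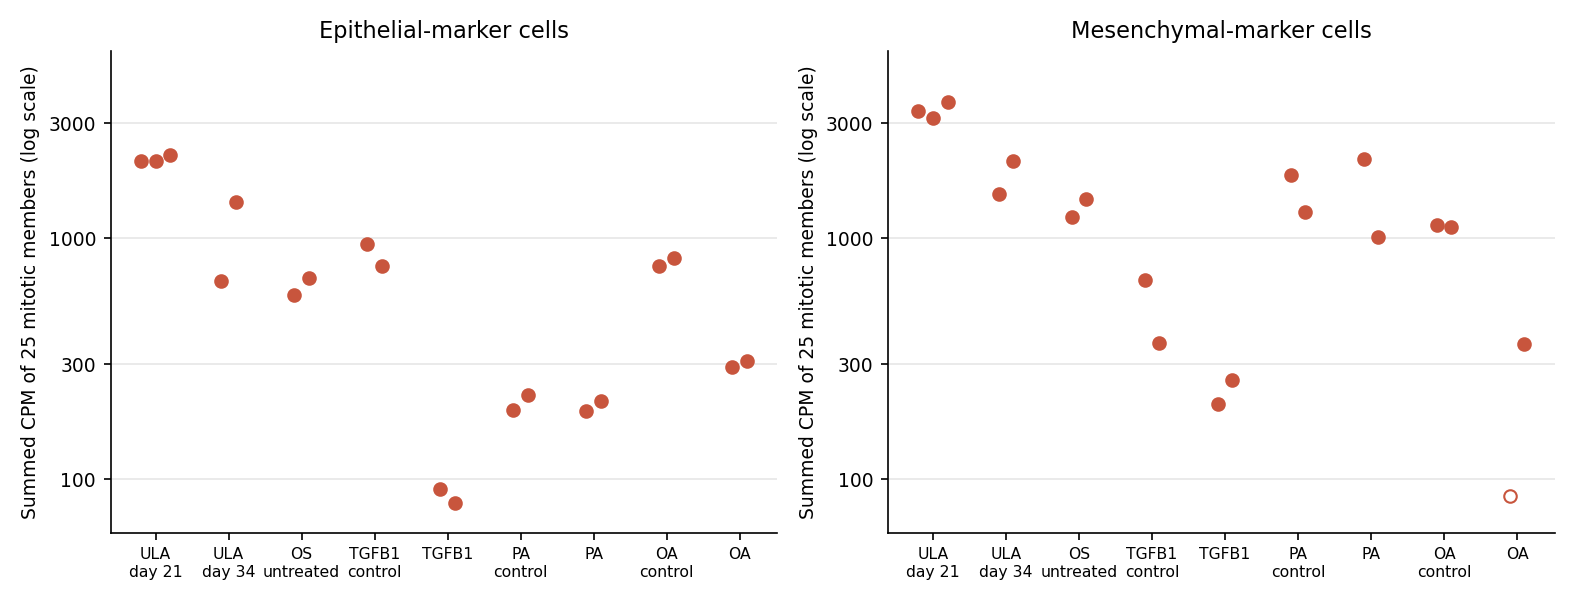
Summed CPM (log scale) of the 25 mitotic members in epithelial-marker cells (left) and mesenchymal-marker cells (right), 1 point per library; the open point is OA replicate 1, with 44 mesenchymal-marker cells, under the minimum of 50. The TGFB1 libraries lie far below their controls on the left and less so on the right.

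The TGFB1 effect differed between the classes. In epithelial-marker cells (4816 and 5728 cells with TGFB1, 6759 and 7876 in the control) 17 S phase and 25 mitotic members were called lower, with 24.6% of all genes called, and the medians were -2.45 and -3.84. There MKI67 was at 68.6 and 53.3 CPM in the control and 2.12 and 1.00 CPM with TGFB1. In mesenchymal-marker cells (493 and 738 with TGFB1, 371 and 340 in the control) edgeR called none, with 0.443% of all genes called, and the medians were -0.56 and -0.91. At an unadjusted p under 0.05, 8 S phase and 14 mitotic members were found there, beside 12.8% of all genes, and 6 members were called without TGFB1 control replicate 2, beside 4.47% of all genes. MKI67 in those cells was at 60.2 and 19.8 CPM in the control and 7.65 and 11.98 CPM with TGFB1. A test of the difference itself, with library as a block, found the effect smaller in mesenchymal-marker cells for 12 of 20 S phase and 23 of 25 mitotic members beside 6.75% of all genes called in either direction, 2.55% higher and 4.2% lower in mesenchymal-marker cells; this test was added after the values of the 2 classes were seen. Without TGFB1 control replicate 2 the count fell from 35 to 21, beside 2.46% of all genes. CENPF, which binds kinetochores, had the smallest adjusted p of these differences, at 3.74 ± 0.25 (edgeR adjusted p = 2.84e-12), and UBE2C followed at 4.04 ± 0.35 (edgeR adjusted p = 8.4e-10). CCNB1 (0.77 ± 0.34, edgeR adjusted p = 0.224) and CENPE (0.44 ± 0.49, edgeR adjusted p = 0.771) were the 2 mitotic members not called.

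In the libraries as wholes, mesenchymal-marker cells held 3.24 and 2.52% of the mitotic members' UMIs in the TGFB1 control and 17.3 and 32.8% with TGFB1. Their share of all UMIs was 4.52 and 5.12% in the control and 9.21 and 13.4% with TGFB1, so the class grew as well. For OA it was 0.499 and 0.891% with OA against 20.6 and 31.4% in its control. Cells whose share fell between the 2 limits made up 1.12 and 0.635% of cells in the control and 5.98 and 4.1% with TGFB1, and whether cells moved between the classes with the treatment was not tested. Of the mitotic UMIs, the mesenchymal-marker cells held 0.146 and 1.05% with OA against 27.4 and 38.1% in its control. Only 44 and 53 such cells were found in the OA libraries, so no test was made in them. In epithelial-marker cells OA still lowered 19 S phase and 20 mitotic members, with 35.8% of all genes called and medians of -1.48 and -1.23, close to the whole-library medians. TOP2A (-0.95 ± 0.36, edgeR adjusted p = 0.0539) and CDK1 (-0.57 ± 0.22, edgeR adjusted p = 0.0558) were among the 5 mitotic members that did not pass there.

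With PA no member was called in either class, at backgrounds of 0.0715% in epithelial-marker and 0.0268% in mesenchymal-marker cells (0.0201% higher and 0.00671% lower), and no difference of its effect between the classes was called for any member (0.0577% of all genes, 0.0315% higher). At an unadjusted p under 0.05 there were 0, 1 and 2 of 45 members, beside 2.48%, 4.21% and 4.11% of all genes. Between ULA day 21 and day 34, 2 S phase and 16 mitotic members were lower in epithelial-marker cells (21.1% of genes) and 7 and 21 in mesenchymal-marker cells (21.4% of genes). The count in epithelial-marker cells went from 18 to 7, 6 or 4 without day 21 replicate 1, 2 or 3 (9.47%, 10.9% or 7.66% of all genes) and to 43 without day 34 replicate 2 (36.9%), and that in mesenchymal-marker cells from 28 to 15, 17 or 15 without day 21 replicate 1 or 3 or day 34 replicate 1 (9.46%, 15.3% or 15.1%). The difference of these effects was called for 5 of 45 members and for 17.5% of all genes. They were MCM6 (0.77), CDT1 (0.46), PLK1 (0.66) and CDC20 (0.64), which fell less in mesenchymal-marker cells, and PTTG1 (-0.46), which fell more. All 5 calls were lost without day 21 replicate 1 or 3, and 29 members were called without day 34 replicate 2, beside 26.6% of all genes.

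Cells in which several mitotic members were detected were far fewer with TGFB1. Each kept cell with at least 2000 UMIs was thinned at random to 2000, and a cell was counted when at least 3 different mitotic members had a UMI. Such cells made up 42.5%, 41.99% and 47.3% of cells in day 21 ULA and 16.6% and 28.1% in day 34 ULA. They made up 11.2% and 15.3% in untreated OS, 18.3% and 10.1% in the TGFB1 control and 0.856% and 0.764% with TGFB1. In the TGFB1 libraries that was 46 of 5372 cells (exact 95% binomial interval 0.628% to 1.14%) and 49 of 6413 (0.566% to 1.01%). The shares were 3.67% and 3.96% with PA against 4.72% and 5.14% in its control, and 6.34% and 7.17% with OA against 16.7% and 13.3% in its control. TGFB1, OA and PA libraries were all below their own controls, and the PA gap was small beside the others. PA control replicate 1 had 61 such cells of 1292 (interval 3.63% to 6.02%), a range that includes both PA shares. The PA and control libraries overlapped with at least 2 members, and without thinning (4.03% and 7.58% against 4.59% and 8.92%). Intervals cover counting error only. No p is given for these shares, since they are scores over members chosen with earlier results of these data known. In TGFB1 control replicate 1, 24.7% of cells had 2000 UMIs, and in PA control replicate 1 40.3%, against 54.9% to 99.2% in the other libraries. Without thinning the shares were 11.8% and 14.8% in the TGFB1 control and 2.68% and 1.48% with TGFB1.

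The counted cells held on average 11.2 and 10.8 mitotic UMIs of 2000 in the TGFB1 control and 10.3 and 9.69 with TGFB1. With OA the averages were 12.4 and 8.61, beside 9.07 and 10.8 in its control, and over all 19 libraries they ranged from 8.61 to 12.4. A cell is counted only with 3 members detected, so less RNA in a dividing cell would itself lower the count and keep these averages from falling, and the 2 cannot be told apart by this measure. The cells held 91.6% and 84.9% of all mitotic UMIs in the TGFB1 control and 40.6% and 35.9% with TGFB1. By the same rule for S phase members, the shares of cells were 1.25% and 0.967% with TGFB1 against 16.04% and 12.3% in its control, 3.36% and 4.02% with OA against 11.1% and 12.7%, and 4.16% and 5.19% with PA against 4.41% and 5.07%. In day 21 ULA they were 38.00%, 35.9% and 38.6% and in day 34 ULA 15.3% and 31.3%. Of the cells with 3 mitotic members, 54.3%, 49.2% and 51.3% also had 3 S phase members in day 21 ULA, 39.1% and 33.3% in untreated OS, 30.4% and 28.6% with TGFB1 against 46.2% and 50.4% in its control, 29.7% and 28.6% with OA against 33.01% and 49.2%, and 44.4% and 46.05% with PA against 45.9% and 48.3%. Within epithelial-marker cells the share with 3 mitotic members was 18.5% and 10.2% in the TGFB1 control and 0.522% and 0.31% with TGFB1, and within mesenchymal-marker cells it was 10.4% and 6.56% and then 3.95% and 4.55%. The mesenchymal-marker shares rest on few cells: 12 of 115 and 20 of 305 in the control, and 17 of 430 and 31 of 681 with TGFB1. Near the limit, exactly 2 mitotic members were seen in 50 and 50 cells and exactly 3 in 9 and 14 cells of the TGFB1 libraries, so the count of cells there depends on the limit.

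Members differed in how much of their RNA lay in cells where other members were also detected, which is a detection rule and does not by itself show that a cell divides. In each library the thinned UMIs of a member were split between cells with at least 2 other S phase or at least 2 other mitotic members, the gene itself left out of the count, and all other cells. In the untreated libraries, which are in the same fit but in neither group of the TGFB1 comparison, those cells were 23.4% and 32.5% of cells (median over members). They held 93.4 and 90% of the TOP2A UMIs and 90.95 and 82.1% of the RRM2 UMIs. For DUT the values were 48.9 and 51.2%, for RFC4 57.3 and 45.3% and for PCNA 49.2 and 62.9%, the lowest S phase members together with MCM3 and MCM7. The 5 lowest mitotic members were CENPE (63.7 and 63.8%), PTTG1 (73.1 and 73.3%), AURKA, CCNB1 and MAD2L1. These same 5 S phase and 5 mitotic members were the 5 of each set that fell least with TGFB1. Over the 45 members Spearman's rho between this share and the TGFB1 log2 fold change was -0.80, and within the sets it was -0.85 (20 genes) and -0.78 (25 genes). MCM6 stood apart, with 56.4 and 63.6% of its UMIs in those cells and one of the larger S phase falls (-3.24). The genes share the same libraries and the measure is a description without a test. For OA the rho was -0.14 over the 45, -0.57 within the S phase and -0.14 within the mitotic members, and 1 of the 5 S phase and 2 of the 5 mitotic members recurred.

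**Figure D5:**
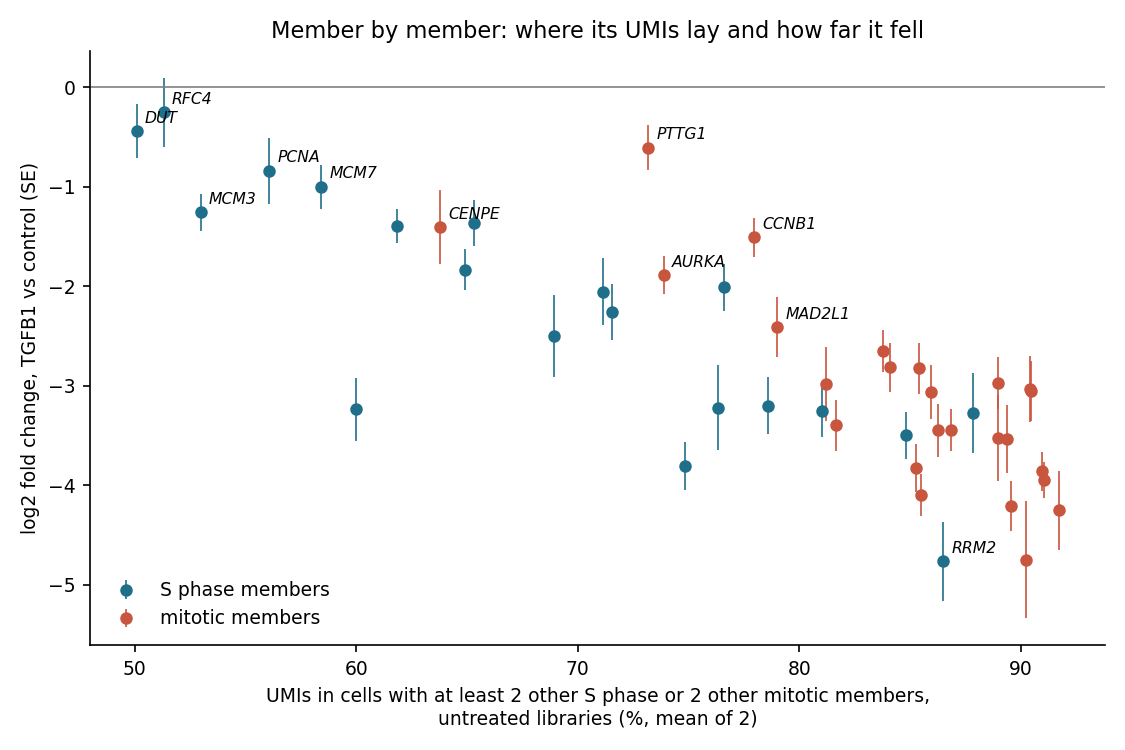
Each point is a member: the x axis gives the percent of its UMIs in untreated libraries that lay in cells with at least 2 other S phase or 2 other mitotic members, and the y axis its log2 fold change with TGFB1 (bars, SE). Members at the right, such as RRM2, lie lowest, and RFC4, DUT and PCNA at the left, with PTTG1, lie closest to 0.

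Levels outside those cells, whose depth is again 2000 UMIs per cell, also differed between members. In all other cells of the TGFB1 control, PCNA was at 23.04 and 31.6 CPM and with TGFB1 at 28.96 and 27.4, and DUT was at 51.1 and 79.8 and then 76.3 and 63.2. PTTG1 was at 12.9 and 17.9 CPM there in the control and 25.7 and 28.7 with TGFB1. In those cells the TGFB1 libraries thus lay within the range of the controls for the clamp and the dUTPase, and above it for securin. Other members were lower there: MCM6 was at 12.2 and 6.06 CPM in the control and 1.7 and 1.93 with TGFB1, GINS2 at 2.85 and 4.63 and then 0.702 and 0.923, and RRM2 at 2.53 and 1.69 and then 0.601 and 0.168. These levels rest on few UMIs. Over all thinned cells of the TGFB1 libraries MCM6 had 20 and 29 UMIs, GINS2 23 and 24 and RRM2 14 and 10. Both TGFB1 libraries were below both controls there for 13 of 20 S phase and 16 of 25 mitotic members, and above them for 1 (PTTG1). The other genes were read by a slightly different rule, in cells with fewer than 2 S phase and fewer than 2 mitotic members, no gene left out. Of those with at least 10 UMIs over these 4 libraries, 37.9% were below and 24.1% above, or 31% and 20.6% with at least 1 UMI. The members had no such minimum of UMIs, so these shares are only a rough background. With OA all 3 of PCNA, DUT and PTTG1 were lower there: PCNA was at 13.4 and 14.4 CPM with OA against 27.6 and 25.8 in its control, DUT at 28.6 and 41.2 against 73.3 and 72.5, and PTTG1 at 4.54 and 10.00 against 20.3 and 23.5. In all 3 genes the OA and control libraries did not overlap. Over the members, OA was below both controls there for 19 of 20 S phase and 11 of 25 mitotic members, and above them for 1, CENPE (31.04 and 25.1 CPM against 8.62 and 24.8). Of the other genes with at least 10 UMIs 45.8% were below and 29.7% above (37.1% and 23% with at least 1 UMI), so the mitotic count was near the share of all genes. RNA set free from other cells also gives UMIs in cells that do not make a gene, and its part in these levels was not tested.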

How the data were processed

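Gene by cell UMI matrices of 19 droplet libraries were read. The matrices hold raw counts of UMIs, which the authors deposited; per the file headers they come from Cell Ranger software 3.0.2 (ULA, TGFB1 and PA sets) or 6.0.2 (untreated, OA control and OA), and per the submitters' processing notes bcl2fastq, Cell Ranger 3.0.2, Scanpy and GRCh38 were used. For intronic reads, ambient RNA and doublets no step by the authors is stated in the sources at hand.

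The 45 members and all gene lists were chosen with earlier results of these data known. Barcodes from 500 genes upward with no more than 20% mitochondrial counts were used, doublets were left in, and UMIs were summed per library. Whole tables were tested with edgeR 4.0.16 (quasi-likelihood, TMM scaling, filterByExpr, Benjamini-Hochberg over all genes, threshold 0.05) in R 4.3.3. The 14 OS libraries were fitted together with 7 group means and the 5 ULA libraries apart. Simulated data were used for the TGFB1 comparison in the OS fit only, and the other fits and comparisons were not simulated. No p is adjusted over a list alone and no list was given a test. Cell shares used thinning to 2000 UMIs (numpy 2.4.6, scipy 1.17.1, pandas 2.3.3), with exact Clopper-Pearson 95% intervals. Promoter windows and start sites are from RefSeq (GRCh38.p14).

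Named in each whole-library comparison are MCM2, PCNA, TYMS, RRM2, TOP2A, MKI67, CDK1 and CCNB1, the 4 S phase and 4 mitotic members with the largest change among those called, and from each of the 3 other lists the 3 called genes with the largest change; other members are given briefly. Genes that rose among mostly lower lists, and the genes given by share of UMIs or level in cells with few members detected, were chosen after their values were seen. Alternatives were RLE and total-count scaling, no count filter, other cell filters, removal of the highest Scrublet scores (scanpy 1.11.5), DESeq2 1.42.0, only the groups compared, narrower class limits, replicate blocks and leaving out each library.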

Additional observations from a re-analysis of the deposited data

Results flagged for a closer look

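The effect of TGFB1 on 35 of the 45 members differed between mesenchymal-marker and epithelial-marker cells by edgeR's test of the difference, all with the smaller fall in mesenchymal-marker cells. After CENPF and UBE2C, MKI67 (3.64), TOP2A (3.76), RRM2 (3.47) and GINS2 (3.58, a subunit of the helicase activator) had large differences of the 2 log2 fold changes. The change from ULA day 21 to day 34 differed between the classes for 5 members by the same test, by 0.77 (MCM6) at most. That was a smaller share of the members than the 17.5% of all genes called, and all 5 calls were lost without day 21 replicate 1 or 3. Both tests were added after the values of the 2 classes had been seen.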

How the results depend on the processing

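Members called went from 21 between the ULA days to 33 with no count filter, and from 1 between the OA control and untreated to 0 with RLE scaling, total counts, the stricter cell filter or only the groups compared, 3 with no count filter and 5 with DESeq2. Leaving out each library in turn gave 6 to 41 (ULA), 0 to 0 (OA control against untreated), 10 to 27 (OA minus PA effect), 4 to 43 (ULA, epithelial-marker cells), 15 to 39 (ULA, mesenchymal-marker cells), 0 to 6 (TGFB1, mesenchymal-marker cells), 21 to 35 (TGFB1 difference between classes) and 0 to 29 (ULA difference between classes); the libraries that moved each count stand in the report. ULA calls in mesenchymal-marker cells were 18 with narrower class limits and 18 with total counts. For the counts in this paragraph the share of all genes called in the same setting is not given here. They therefore show the dependence on processing and are not read as results about the members. The TGFB1 comparison stayed between 39 and 43 members, OA between 32 and 45 and PA at 0 in every alternative run.

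No label ties same-numbered libraries to each other. Their deviations correlated at -0.222 (TGFB1), 0.0887 (PA), 0.0408 (OA), -0.440 (OA control and untreated) and -0.165 and -0.269 (ULA). These correlations cannot show whether such libraries shared a differentiation or a run. With the replicate block the counts were 41 (TGFB1), 42 (OA), 0 (ULA, where none of the 22261 genes tested was called either), 1 (ULA, epithelial-marker cells) and 0 (OA control against untreated). With the pairs crossed, 42 members were called for TGFB1 and 0 for the OA control. Apart from the whole-library ULA count, the share of all genes called is not given beside these counts.

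In percentage points, shares of cells with S phase members moved from -13.1 to -17.9 with at least 2 members and -6.32 with 1000 UMIs for TGFB1, and from -8.21 to -14.9 and -3.28 for OA. The OA control moved from 2.54 to 4.29 with at least 2, 0.982 with 1000 UMIs and 1.37 without untreated replicate 1, and ULA from -14.2 to -6.90 with 1000 UMIs, -6.21 without day 34 replicate 1 and -22.2 without day 34 replicate 2. The PA value turned from -0.0634 to 0.239 with at least 2 members, was -0.609 with 1000 UMIs and -0.345 with the stricter cell filter, and ran from -0.580 to 0.454 without single libraries. For mitotic members TGFB1 moved from -13.4 to -7.93 with 1000 UMIs, OA from -8.27 to -11.4 with at least 2 and -5.61 with 1000 UMIs, PA from -1.12 to -1.59 with the stricter cell filter, and the OA control from 1.79 to 0.312 with at least 2 and to between -0.238 (without untreated replicate 1) and 3.82 (without untreated replicate 2) without single libraries. With at least 2 members the PA value for mitotic members was -0.932, and the PA and control libraries overlapped.

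Small log2 values that changed sign were TYMS with PA (-0.00686 with RLE, -0.0607 with total counts, -0.0103 with the replicate block, -0.000221 with only the groups compared), CDK1 with PA (0.0135, stricter filter), and in the OA control TOP2A (-0.12 with total counts, -0.0417 with the stricter filter, -0.0093 with only the groups compared), CDK1 (-0.053) and CCNB1 (-0.034) with total counts and MKI67 (3.3e-05 without the highest Scrublet scores). Without single libraries, values with PA ran from -0.69 to 0.48 (TYMS), -1.11 to 0.18 (MCM2), -0.63 to 0.86 (PCNA) and -0.21 to 0.12 (CCNB1), and those of the OA control from -0.20 to 0.25 (TOP2A), -0.0418 to 0.65 (RRM2), -0.34 to 0.32 (MKI67) and -0.0907 to 0.39 (CCNB1). Where a setting left fewer samples or tested more genes, that is its construction; otherwise the cause was not tested. With 2 libraries in most groups, a lone library left by leaving 1 out is assumed to vary like the other groups.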

Other observations

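In the PA set TOP2A stood apart from MKI67. The ratio of their UMIs was 11.9 and 7.90 in the PA control libraries and 9.33 and 4.70 with PA, whereas it lay between 1.23 and 2.72 in the other 15 libraries. TOP2A was at 102 and 71.2 CPM in the PA control, within the range of the other OS controls. MKI67 was lower there than in any other control library, as were most other mitotic members, CENPF, UBE2C and CDK1 among them.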
